A study of Homo sapiens with 6 samples.

Results

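The genes described here encode sugar, monocarboxylate, vitamin, nucleoside and zinc transporters of the solute carrier superfamily. They were chosen by name, as every row of the deposited table whose symbol is SLC2A, SLC5A, SLC16A, SLC19A, SLC28A, SLC29A, SLC30A or SLC39A followed by a number. This gave 71 of the 17911 genes in the table, and 42 of the 71 reached a value of 1 in 3 or more of the 6 libraries. SLC2A4RG, which shares the start of its name but encodes a DNA-binding regulator and no transporter, was left out. RNA came from HL-60, a human promyelocytic leukaemia cell line long kept in culture, and was sequenced in 3 control libraries and 3 libraries of cells given 10 µM amiodarone for 24 h. Amiodarone is an iodine-containing antiarrhythmic drug and a cationic amphiphilic compound. All 6 libraries come from this 1 line, no genetic change is named, and the labels do not say whether controls received a vehicle or whether libraries came from separate cultures. The p-values below therefore measure the spread between libraries, which may be technical.

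Solute carriers move small molecules across membranes without spending ATP directly. GLUT proteins (SLC2A) let hexoses pass down their gradient, and SLC5A proteins couple sugars, vitamins or anions to sodium. Monocarboxylate transporters (MCTs, SLC16A) include the proton-coupled carriers that let lactate in or out of glycolytic cells. SLC19A proteins carry folate and thiamine, and the SLC28A and SLC29A families bring in nucleosides, among them nucleoside analogs used against leukaemia. Zinc leaves the cytosol through ZnT proteins (SLC30A) and enters it through ZIP proteins (SLC39A).

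The values behave like RPKM, read numbers scaled by gene length and library size, so levels of different genes can be compared per length. Each library held 11129 to 11323 genes at a value of at least 1. The columns summed to 534486 to 539030 in controls and to 568654 to 574483 after amiodarone, so the sums did not overlap. From the spacing of low values, an uncertain estimate, a value of 1 stands for 87 to 99 reads in a tested transporter of the median exonic length of 5.36 kb. The correlation of log2 values across genes was 0.9975 to 0.9982 within a group and 0.959 to 0.96 between groups. The HL-60 identity was checked against 8 promyelocyte genes, all of which were tested. Their summed value was 7218 to 7344 in controls and 3229 to 3309 after amiodarone. Most of it was the granule enzyme gene MPO, at 5914 to 5998 in controls and 2596 to 2646 after amiodarone. CD33 overlapped between the groups (89.3, 92.2 and 93.5 in controls against 99.0, 91.9 and 95.7). Each other gene of this list was lower in every amiodarone library than in any control library. The 5 T and NK cell genes summed to 125 to 131 in controls and 173 to 181 after amiodarone, nearly all of it NKG7, while CD3E was at most 0.24. The 4 B cell genes summed to 23.5 to 24.0 and 22.4 to 23.7, and the sums of the erythroid, epithelial and fibroblast genes were at most 0.06, 0.56 and 0.77. The part of these shifts in the results below was not tested.

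After amiodarone, 15 of the 42 tested transporter genes were higher and 21 lower, and 6 did not pass the test (limma on log2(value + 1), Benjamini-Hochberg adjusted p under 0.05). Of all 11445 tested genes, 78.3% were called, 33.5% higher and 44.8% lower, so a call by itself does not set the transporters apart. The groups did not overlap in 36 of the 42, and in 79.3% of all tested genes. Amiodarone lay above in 15 and below in 21, against 34.0% and 45.3% of all tested genes. 4 of the 15 higher genes, SLC2A4, SLC5A5, SLC16A9 and SLC30A4, reached a value of 1 only in the amiodarone libraries and so had to differ once tested. Without genes that passed the filter through 1 group alone, 11 of 38 transporters were higher and 21 lower, against 32.3% and 45.2% of all such genes. 3 genes passed 2-fold on the log2(value + 1) scale: SLC16A4 upward, where 2.55% of all tested genes did, and SLC2A5 and SLC5A6 downward, where 2.60% did. Over the 42 genes the log2 fold change had a median of -0.10, against -0.06 over all tested genes. In bulk RNA, fewer cells of a type and less RNA per cell cannot be told apart. Values written with ± are the mean and SD of the 3 libraries of a group.

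Calls differed in direction between abundant and rarer transporters. Of the 20 tested transporters with a mean of at least 10 over the 6 libraries, 16 were lower and 1, SLC2A3, was higher. Of the 22 with a lower mean, 14 were higher and 5 lower, and without the 4 genes that had to differ, 10 of 18 were higher and 5 lower. Among all tested genes the corresponding shares were 51.8% lower and 30.7% higher at a mean of at least 10, and 37.1% lower and 36.5% higher under it (37.2% and 34.2% without genes that passed through 1 group alone). This difference was not tested. The number of higher calls also rested on the filter on low values: it was 25 without a filter and 5 at a minimum value of 5.

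**Figure D1:**
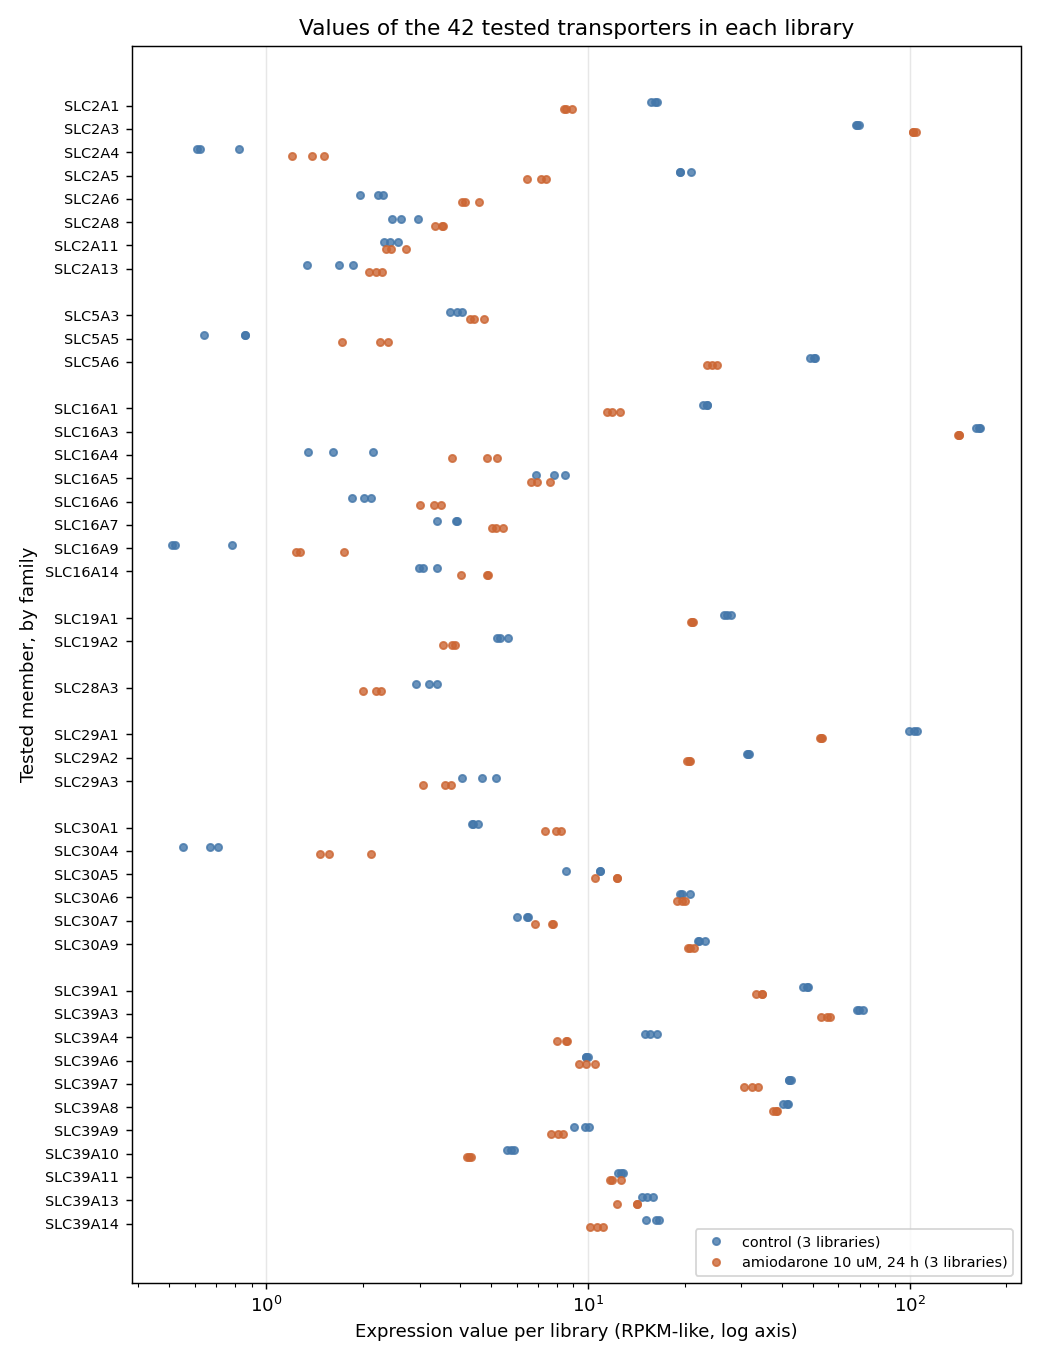
Expression value (RPKM-like, log axis) of each of the 42 tested transporters in each library, with 3 control points and 3 amiodarone points per gene. The highest rows are SLC16A3, SLC29A1 and SLC2A3, and most genes that moved to the right after amiodarone lie under a value of 10.

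**Figure D2:**
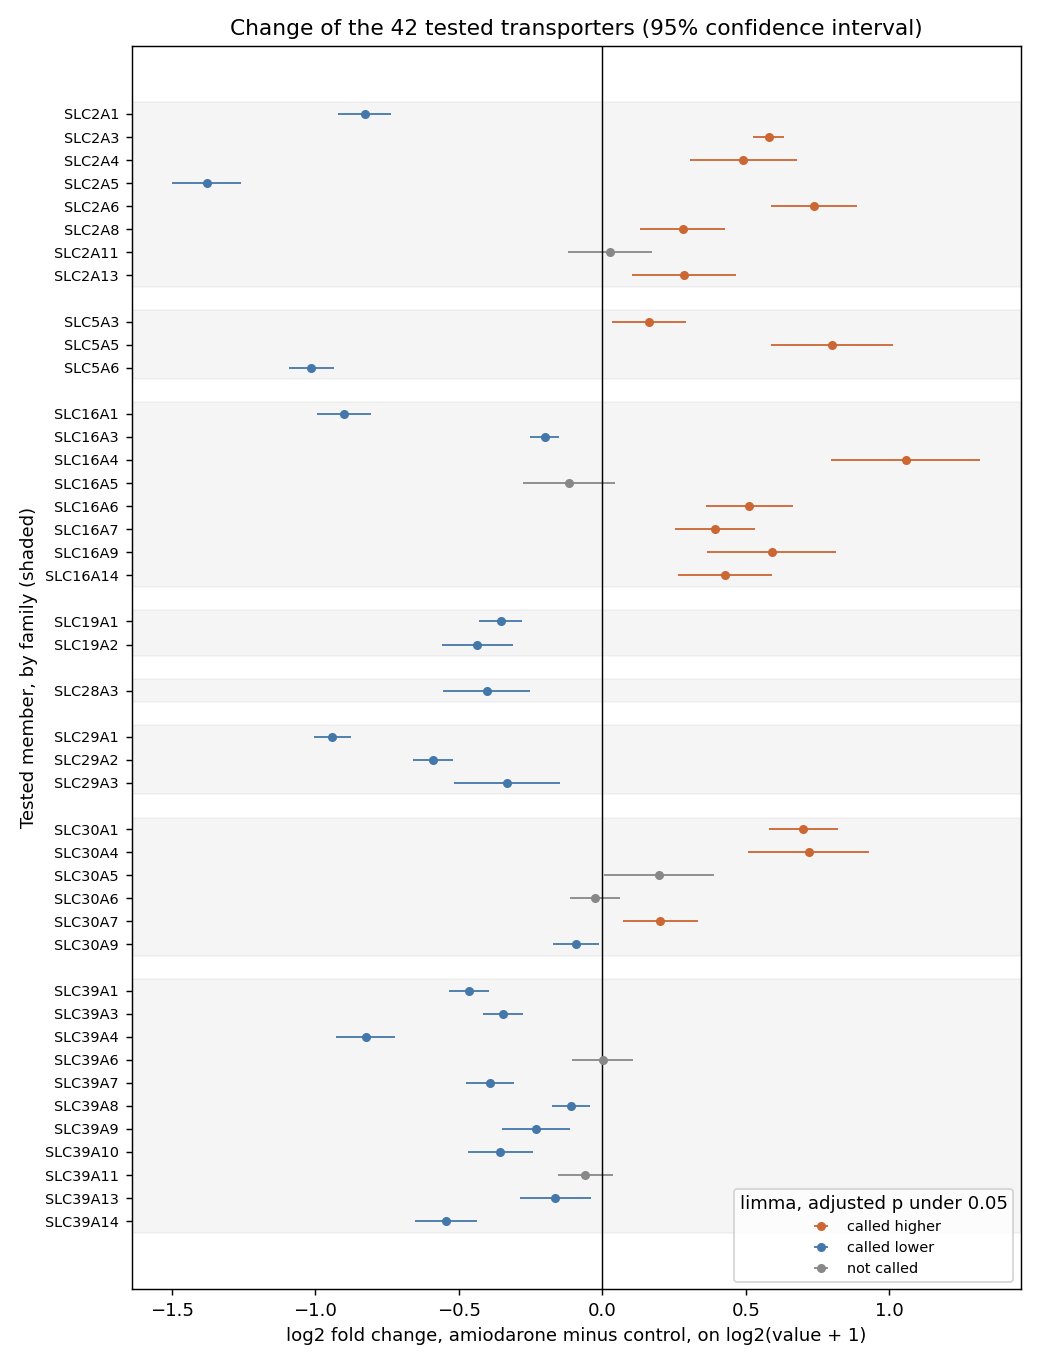
Log2 fold change (amiodarone minus control, on log2(value + 1)) of the 42 tested transporters with 95% confidence intervals from limma, by family and coloured by call. The SLC19A, SLC28A, SLC29A and SLC39A rows hold no gene called higher, while SLC2A, SLC5A, SLC16A and SLC30A hold calls in both directions.

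In the GLUT family, the transcripts of the main glucose transporter rose while those of 2 other abundant members fell. 5 of 8 tested SLC2A genes were higher and 2 lower, against 33.5% and 44.8% of all tested genes. Without SLC2A4, which had to differ, 4 of 7 were higher and 2 lower, against 32.3% and 45.2% of all genes counted that way. The median log2 fold change of the 8 genes was 0.28, but -0.83 at a minimum value of 5, where only the abundant genes were left. SLC2A3 encodes GLUT3, a high-affinity glucose transporter of neurons and white blood cells. Its values were 69.5, 68.0 and 68.7 in controls and 103, 105 and 102 after amiodarone. Every amiodarone library lay above every control library, a 1.5-fold difference of means (log2 fold change 0.58, SE 0.025, limma, adjusted p = 4.53e-09). SLC2A1 encodes GLUT1, the widely expressed basal glucose transporter, and its values of 16.2, 16.4 and 15.7 in controls stood against 8.44, 8.90 and 8.57. It fell 1.87-fold, with no overlap between the groups (log2 fold change -0.83, SE 0.042, limma, adjusted p = 1.40e-08). SLC2A5, which encodes the fructose transporter GLUT5, had the largest fall of all 42 tested transporters. Its values were 19.3, 19.3 and 20.9 in controls and 7.16, 7.42 and 6.47 after amiodarone, 2.83-fold lower (log2 fold change -1.38, SE 0.055, limma, adjusted p = 2.34e-09).

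The make-up of GLUT transcripts shifted accordingly. SLC2A3 held 58.5% to 59.9% of the family's summed value in the control libraries and 76.6% to 76.9% in the amiodarone libraries. Over the same libraries the share of SLC2A1 went from 13.4% to 14.4% down to 6.31% to 6.52%, and that of SLC2A5 from 16.7% to 17.8% down to 4.86% to 5.44%. The summed value of the family was 116 ± 1.56 in controls and 134 ± 1.79 after amiodarone (SD, n = 3 each). SLC2A14, which encodes GLUT14, is a close copy of SLC2A3: 16.0% of the 50-base words in annotated SLC2A3 transcripts also occur in transcripts of other genes, most often in those of SLC2A14. Its own values were 0.07 to 0.17, so reads assigned to it were few in either group.

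Of the tested GLUT genes with a mean under 10, 4 were called higher, SLC2A4 among them, and 1 was not called. At that level 36.5% of all tested genes were higher. SLC2A6 encodes GLUT6, a transporter of intracellular membranes in spleen and white cells, and its values were 1.96, 2.30 and 2.23 in controls and 4.59, 4.16 and 4.07 after amiodarone. The 2 groups were apart, with means 1.98-fold different (log2 fold change 0.74, SE 0.068, limma, adjusted p = 1.96e-06). SLC2A8, which encodes the endosomal and lysosomal transporter GLUT8, went from a mean of 2.68 ± 0.255 to 3.46 ± 0.108 and was called higher, as was SLC2A13, the proton and myo-inositol cotransporter gene (1.63 ± 0.264 to 2.19 ± 0.105). SLC2A4, which encodes the insulin-responsive GLUT4, stayed low, at 0.683 ± 0.118 and 1.37 ± 0.156, and no control library reached a value of 1. SLC2A11 was not called (2.44 ± 0.121 and 2.51 ± 0.182), with a 95% confidence interval of its log2 fold change from -0.12 to 0.17. The other 6 SLC2A genes were not tested, among them SLC2A9, a urate transporter gene (0.967 ± 0.078 and 0.863 ± 0.085), and SLC2A2, the liver and beta cell GLUT2, listed at 0 in 5 libraries and at 0.02 in 1.

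**Figure D3:**
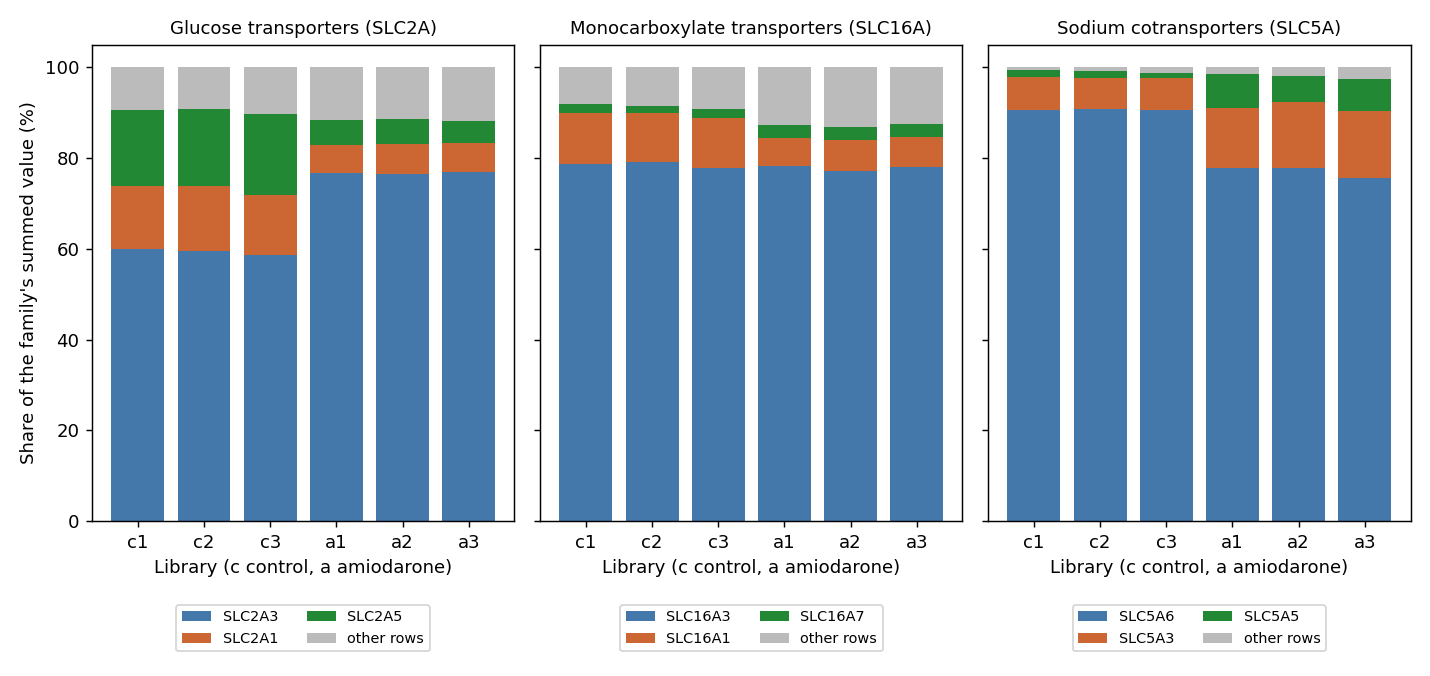
Share of each family's summed value (percent) taken by its leading genes in each control (c) and amiodarone (a) library, for SLC2A, SLC16A and SLC5A. SLC2A3 takes 76.6% to 76.9% of the SLC2A sum after amiodarone, above every control library, while SLC16A3 takes 77.1% to 79.1% of the SLC16A sum in all 6 libraries.

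A list of partners and enzymes of sugar entry and lactate exchange moved in both directions. In it 3 of 9 tested genes were higher and 5 lower, against 33.5% and 44.8% of all tested genes. Of these 5, 1 reached a value of 1 only in the control libraries and so had to differ once tested. TXNIP, which encodes an arrestin-like protein known to promote removal of GLUT1 and GLUT4 from the cell surface, fell from 117 ± 1.47 to 31.9 ± 0.859, and LDHA, the lactate dehydrogenase A gene, from 469 ± 7.03 to 138 ± 2.53. Both had non-overlapping groups (limma, adjusted p = 2.96e-12 for TXNIP and 1.00e-12 for LDHA).

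SLC16A genes split between the abundant lactate carriers, which were lower, and rarer members, which were mostly higher. 5 of 8 tested genes rose and 2 fell, against 33.5% and 44.8% of all tested genes. Without SLC16A9, which had to differ, 4 of 7 rose and 2 fell, against 32.3% and 45.2% of all genes counted that way. The median log2 fold change of the 8 genes was 0.41, and it was -0.16 at a minimum value of 5 and -0.04 without a filter. SLC16A3 encodes MCT4, the carrier typical of lactate export from glycolytic cells. It was the most abundant of the 71 genes and is described for that level, after its values were seen. Its values were 161, 166 and 164 in controls and 142, 143 and 141 after amiodarone. The groups did not overlap, but the difference was small, 1.15-fold (log2 fold change -0.20, SE 0.023, limma, adjusted p = 1.13e-05). SLC16A1, which encodes the widely expressed lactate and pyruvate carrier MCT1, fell more, from 23.4, 22.8 and 23.5 to 11.4, 12.6 and 11.9. This was a 1.94-fold difference without overlap (log2 fold change -0.90, SE 0.042, limma, adjusted p = 8.47e-09). The share of SLC16A1 in the family's summed value was 10.9% to 11.4% in controls and 6.29% to 6.80% after amiodarone, whereas SLC16A3 kept 77.1% to 79.1% throughout.

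SLC16A7, which encodes the high-affinity carrier MCT2, was the lactate carrier that rose, from a mean of 3.74 ± 0.295 to 5.22 ± 0.224, and SLC16A8, the MCT3 gene of the retinal pigment epithelium, was at most 0.09. BSG encodes basigin, the partner that MCT1 and MCT4 need to reach the cell surface. It fell from 332 ± 4.07 to 259 ± 8.51, 1.28-fold (limma, adjusted p = 3.89e-07). EMB, which encodes embigin, the usual partner of MCT2, was not called (15.5 ± 0.608 and 14.3 ± 0.694, limma, adjusted p = 0.0502). EMB was called lower in 4 of 14 alternatives, with adjusted p from 0.00303 to 0.171 over all of them: at a minimum value of 5 (0.0458), with equal sums (0.00303), and without control replicate 3 (0.0329) or amiodarone replicate 3 (0.0416).

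SLC16A4, an MCT family member without a settled substrate, had the largest rise of the tested transporters. Its values were 1.61, 1.35 and 2.14 in controls and 4.84, 5.22 and 3.78 after amiodarone, 2.71-fold higher in the mean with no overlap (log2 fold change 1.06, SE 0.12, limma, adjusted p = 8.64e-06). SLC16A6 rose from 2.12, 2.01 and 1.85 to 3.01, 3.49 and 3.31, a 1.64-fold difference (log2 fold change 0.51, SE 0.069, limma, adjusted p = 3.93e-05), although 8.47% of the 50-base words of its transcripts occur elsewhere, most often in its pseudogene SLC16A6P1. SLC16A14 went from 3.06, 2.99 and 3.39 to 4.03, 4.85 and 4.88, again without overlap (1.46-fold, log2 fold change 0.43, SE 0.074, limma, adjusted p = 2.88e-04). SLC16A9, which had to differ, was called higher at low values (0.603 ± 0.153 to 1.42 ± 0.280), and SLC16A5 was not called (7.75 ± 0.799 and 7.06 ± 0.5). SLC16A5 was called lower with equal sums (limma, adjusted p = 0.0242) and without control replicate 1 (0.0279), over a range of 0.0242 to 0.508. Among the 5 that were not tested, SLC16A10, which encodes an aromatic amino acid carrier, had means of 0.980 and 0.900, SLC16A12 of 0.213 and 0.667, and SLC16A13 of 1.27 and 0.780.

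Of the sodium-coupled SLC5A genes 3 of 12 were tested. The glucose cotransporter genes of gut and kidney, SLC5A1 and SLC5A2, were at most 0.04 and 0.50 and were among the 9 left out. SLC5A6 encodes the sodium-dependent multivitamin transporter, which carries biotin and pantothenate, and it made up 90.6% to 90.7% of the family's summed value in controls. Its values were 50.5, 49.0 and 50.9 in controls and 25.2, 23.5 and 24.3 after amiodarone. This 2.06-fold fall had no overlap (log2 fold change -1.01, SE 0.035, limma, adjusted p = 8.24e-10). SLC5A5, which encodes the sodium iodide symporter of the thyroid, had low values: 0.86, 0.86 and 0.64 in controls against 2.39, 1.72 and 2.25, a 2.69-fold difference of means. No control library reached the minimum value of 1, so SLC5A5 entered the test only through the amiodarone libraries and its test result is not given.

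SLC5A3, the myo-inositol cotransporter gene, was called slightly higher (4.06, 3.72 and 3.93 against 4.29, 4.42 and 4.75, log2 fold change 0.16, SE 0.059, limma, adjusted p = 0.0258). That call was lost with scaling to equal sums (adjusted p = 0.204) and without control replicate 2 (0.0926), control replicate 3 (0.0531) or amiodarone replicate 3 (0.0966), over a range of 0.0095 to 0.204 in all alternatives run. The remaining 9 SLC5A genes had values of 0.50 or less in every library.

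Both tested vitamin carriers of the SLC19A family were lower, where 44.8% of all tested genes were. SLC19A1 encodes the reduced folate carrier, through which folates and antifolates such as methotrexate enter cells. Its values of 27.1, 26.6 and 27.9 fell to 21.1, 21.2 and 20.9, 1.29-fold (log2 fold change -0.35, SE 0.034, limma, adjusted p = 2.48e-06), and 14.0% of its exonic bases lie opposite COL18A1. SLC19A2, a thiamine transporter gene, fell from 5.64, 5.31 and 5.21 to 3.77, 3.86 and 3.54, 1.45-fold (log2 fold change -0.44, SE 0.057, limma, adjusted p = 3.07e-05). The groups did not overlap in either gene. SLC19A3, the second thiamine transporter gene, was under 1 in every library (0.403 ± 0.059 and 0.660 ± 0.144) and was not tested. Of 7 tested genes that use or handle folate and thiamine inside the cell, 5 fell and 1 rose. Among all tested genes 44.8% fell and 33.5% rose. GGH, which encodes an enzyme that trims folate polyglutamates, fell from 29.7 ± 1.75 to 18.2 ± 0.623.

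The tested nucleoside transporter genes fell. All 3 tested equilibrative transporter genes and the 1 tested concentrative transporter gene were lower, where 44.8% of all tested genes were. SLC29A1 encodes ENT1, the main route for nucleosides and for analogs such as cytarabine into leukaemia cells, and was the second most abundant of the 71 genes in controls. Its values were 99.3, 105 and 103 in controls and 53.4, 52.8 and 52.8 after amiodarone. The groups lay far apart relative to their spread, 1.94-fold (log2 fold change -0.94, SE 0.029, limma, adjusted p = 3.55e-10). SLC29A2, which encodes the nucleoside and nucleobase transporter ENT2, fell from 31.2, 31.5 and 31.6 to 20.8, 20.3 and 20.6, 1.53-fold (log2 fold change -0.59, SE 0.031, limma, adjusted p = 2.31e-08). SLC29A3, which encodes the lysosomal and mitochondrial ENT3, went from 4.64 ± 0.551 to 3.48 ± 0.356 and was also called lower. Of the exonic bases of SLC29A3, 13.3% are shared with AL359183.1, an annotated gene on the same strand. The summed SLC29A value was 139 ± 3.72 in controls and 77.2 ± 0.806 after amiodarone (SD, n = 3 each).

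The sodium-coupled nucleoside transporters were rare. SLC28A3 encodes CNT3, which takes both purine and pyrimidine nucleosides, and it fell from 3.39, 2.91 and 3.21 to 2.19, 2.00 and 2.27, 1.47-fold and without overlap (log2 fold change -0.40, SE 0.068, limma, adjusted p = 2.49e-04). The summed SLC28A value was 3.83 ± 0.379 in controls and 3.98 ± 0.342 after amiodarone. SLC28A1 and SLC28A2 did not pass the filter, and every amiodarone library lay above every control library in both, with means of 0.330 and 0.747 for the first and 0.327 and 1.08 for the second. Without a filter both were called higher, and the median of the 3 SLC28A genes was 0.39. SLC29A4, a monoamine and adenosine transporter gene, had means of 0.417 and 0.217. Of 15 tested nucleoside salvage genes 3 rose and 7 fell, against 33.5% and 44.8% of all tested genes. CDA, which encodes the cytidine deaminase that also inactivates cytarabine, rose from 18.7 ± 0.302 to 53.9 ± 1.41, and NT5C2, a cytosolic nucleotidase gene, from 43.9 ± 1.24 to 67.6 ± 0.452. TK1, the thymidine kinase gene of dividing cells, fell from 34.1 ± 2.26 to 11.6 ± 0.696.

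Among zinc transporters, the gene of the plasma membrane exporter rose and most tested importer genes fell. 3 of 6 tested ZnT genes were higher and 1 lower (median log2 fold change 0.20), while 9 of 11 tested ZIP genes were lower and none was higher (median -0.35), against 33.5% higher and 44.8% lower among all tested genes. Without SLC30A4, which had to differ because no control library reached a value of 1, 2 of 5 ZnT genes were higher. The difference between the 2 families was not tested. SLC30A1 encodes ZnT1, the zinc exporter of the plasma membrane. Its values were 4.36, 4.39 and 4.54 in controls and 7.94, 8.22 and 7.33 after amiodarone. It rose 1.77-fold with no overlap (log2 fold change 0.70, SE 0.055, limma, adjusted p = 5.03e-07).

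SLC30A1 and the metallothionein genes are textbook targets of MTF1, a zinc-sensing transcription factor that binds metal response elements. The MTF1 transcript itself rose from 5.62, 5.74 and 5.76 to 12.6, 13.2 and 12.8, 2.25-fold and without overlap (limma, adjusted p = 3.81e-09). Of the 4 tested genes in the list of MTF1 and metallothioneins 3 were higher and 1 was not called. Among all tested genes 33.5% were higher. MT1X, a metallothionein gene, went from 51.5, 50.6 and 54.6 to 92.3, 97.9 and 97.1, 1.83-fold (limma, adjusted p = 3.08e-09), and MT1F from 4.30 ± 0.904 to 6.31 ± 0.568. MT2A, the most abundant metallothionein gene, named after its values were seen, was not called: 214, 221 and 249 in controls against 240, 239 and 234. Metallothionein genes are close copies of each other, so the split of reads among them is uncertain.

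Stretches of 250 bases just before the RefSeq start of these 3 genes (GRCh38.p14) are shown because the genes share a known regulator and differ in response. Capitals mark matches, on either strand, to the metal response element cores TGCACNC and TGCGCNC, written 5′ to 3′ along the gene's strand. The SLC30A1 stretch is chr1:211579162-211579411 (minus strand), with 1 match starting at -49 from the gene start. That of MT1X is chr16:56682220-56682469 (plus strand), with 4, and that of MT2A chr16:56608334-56608583 (plus strand), with 7.
SLC30A1: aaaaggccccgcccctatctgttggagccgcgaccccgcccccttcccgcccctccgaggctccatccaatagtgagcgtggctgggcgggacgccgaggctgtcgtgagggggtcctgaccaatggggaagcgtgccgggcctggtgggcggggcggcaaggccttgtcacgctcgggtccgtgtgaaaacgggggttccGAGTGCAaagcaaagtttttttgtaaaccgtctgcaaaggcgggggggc
MT1X: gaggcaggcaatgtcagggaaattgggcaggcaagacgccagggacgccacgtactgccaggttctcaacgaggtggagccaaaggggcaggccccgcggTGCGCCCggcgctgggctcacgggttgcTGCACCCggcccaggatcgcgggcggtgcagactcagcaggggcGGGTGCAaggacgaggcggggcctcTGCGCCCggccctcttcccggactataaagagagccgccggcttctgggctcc
MT2A: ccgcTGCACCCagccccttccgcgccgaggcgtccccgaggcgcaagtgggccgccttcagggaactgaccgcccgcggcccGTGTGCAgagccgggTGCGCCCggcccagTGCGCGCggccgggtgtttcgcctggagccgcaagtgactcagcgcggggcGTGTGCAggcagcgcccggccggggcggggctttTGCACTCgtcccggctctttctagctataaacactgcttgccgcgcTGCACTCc
At least 1 match was present in 24.83% of all 35116 stretches of this length in the table, at least 4 in 0.37% and at least 7 in 0.03%. Of the 19 zinc transporter genes with an entry, 6 held a match (31.6%). SLC30A1 was higher, as was SLC30A4, which had to differ, and SLC39A3 was lower. SLC30A6 and SLC39A6 were not called, and SLC30A3 was not tested. MT2A, which had the most matches of the 3 genes shown, was not called. Whether MTF1 or these matches bear on the changes was not tested.

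Transcripts of intracellular ZnT genes changed less or were low. SLC30A4, an endosomal ZnT gene that had to differ, was called higher at low values (0.643 ± 0.083 to 1.72 ± 0.344). SLC30A7, which encodes a ZnT of the Golgi and secretory pathway, had values of 6.48, 6.49 and 6.03 in controls and 6.84, 7.71 and 7.79 after amiodarone (1.18-fold, log2 fold change 0.20, SE 0.059, limma, adjusted p = 0.00826), and this call was lost with scaling to equal sums (adjusted p = 0.0808, range over all alternatives 0.00193 to 0.0808). SLC30A5 and SLC30A6, whose products act together in the early secretory pathway, were not called, with means of 10.1 and 11.7 and of 19.9 and 19.5 and confidence intervals of the log2 fold change of 0.004 to 0.39 and -0.11 to 0.06. SLC30A5 (adjusted p = 0.0578, limma) was called higher in 5 of 14 alternatives, with 0.0197 to 0.26 over all of them: at a minimum value of 5 (0.0459), with the median of ratios (0.0286), and without control replicate 1 (0.035), control replicate 3 (0.0329) or amiodarone replicate 1 (0.0197). SLC30A6 was called lower with equal sums (limma, adjusted p = 0.0293, range 0.0293 to 0.942). SLC30A9, a mitochondrial zinc transporter gene and the most abundant ZnT gene, was called lower by a small margin (22.3 ± 0.617 to 20.9 ± 0.480, log2 fold change -0.09, limma, adjusted p = 0.0379). That call was lost in 7 of 14 alternatives, with adjusted p-values from 9.32e-04 to 0.188 over all of them: with the median of ratios (0.188), without the variance trend (0.0539), with the replicate block (0.0673), and without control replicate 2 (0.147), control replicate 3 (0.0621), amiodarone replicate 1 (0.0938) or amiodarone replicate 2 (0.0868). SLC30A10, a manganese exporter gene, was not tested and had means of 0.213 and 0.637, and SLC30A3 and SLC30A8, of synaptic vesicles and insulin granules, were at most 0.62 and 0.20.

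The ZIP genes formed the family with the highest summed value, 286 ± 1.82 in controls and 227 ± 3.02 after amiodarone (SD, n = 3 each). SLC39A4 encodes ZIP4, the importer of dietary zinc. Its values were 15.6, 15.04 and 16.3 in controls and 8.03, 8.57 and 8.62 after amiodarone, the largest fall of the ZIP genes at 1.86-fold (log2 fold change -0.83, SE 0.047, limma, adjusted p = 3.95e-08). SLC39A14, whose product ZIP14 also carries iron and manganese, fell from 16.3, 15.2 and 16.6 to 10.7, 10.1 and 11.2, 1.5-fold (log2 fold change -0.54, SE 0.049, limma, adjusted p = 1.59e-06). Neither gene had overlapping groups. SLC39A1, a plasma membrane zinc importer gene, fell from 48.1, 46.7 and 48.3 to 34.8, 33.4 and 34.8, 1.39-fold (log2 fold change -0.46, SE 0.031, limma, adjusted p = 1.60e-07). Its reads are uncertain, because 60.8% of its exonic bases are shared with AL358472.7, an annotated gene on the same strand. SLC39A7, which encodes the ZIP7 that releases zinc from the endoplasmic reticulum and Golgi, fell from 42.3, 42.9 and 42.3 to 33.7, 32.2 and 30.5, 1.32-fold (log2 fold change -0.39, SE 0.038, limma, adjusted p = 2.83e-06).

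SLC39A3, the most abundant ZIP gene, went from 70.0 ± 1.56 to 54.9 ± 1.67, SLC39A10 from 5.76 ± 0.15 to 4.28 ± 0.060 and SLC39A9, a Golgi ZIP gene, from 9.62 ± 0.540 to 8.05 ± 0.356, and all were called lower. Of the exonic bases of SLC39A3, 9.6% are shared with AC006538.2, an annotated gene on the same strand. SLC39A8, whose product takes up zinc and manganese, fell by a small amount (41.2 ± 0.751 to 38.1 ± 0.604), and its share of the family's summed value was higher after amiodarone, 16.3% to 17.3% against 14.2% to 14.6%. SLC39A13, a ZIP gene of the secretory pathway, was called lower (15.3 ± 0.595 to 13.6 ± 1.08, limma, adjusted p = 0.0196), and the call was lost with the median of ratios (0.063) and without control replicate 3 (0.0713) or amiodarone replicate 3 (0.0723), over a range of 0.00139 to 0.0723. SLC39A6 was the ZIP gene with the smallest difference, 9.90 ± 0.068 against 9.92 ± 0.570, and its 95% confidence interval was -0.11 to 0.11 in log2. SLC39A11 was not called either (12.6 ± 0.220 and 12.1 ± 0.507), other than with equal sums (limma, adjusted p = 0.0129, range 0.0129 to 0.626). SLC39A2 and SLC39A5 were at most 0.09 and were not tested.

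**Figure D4:**
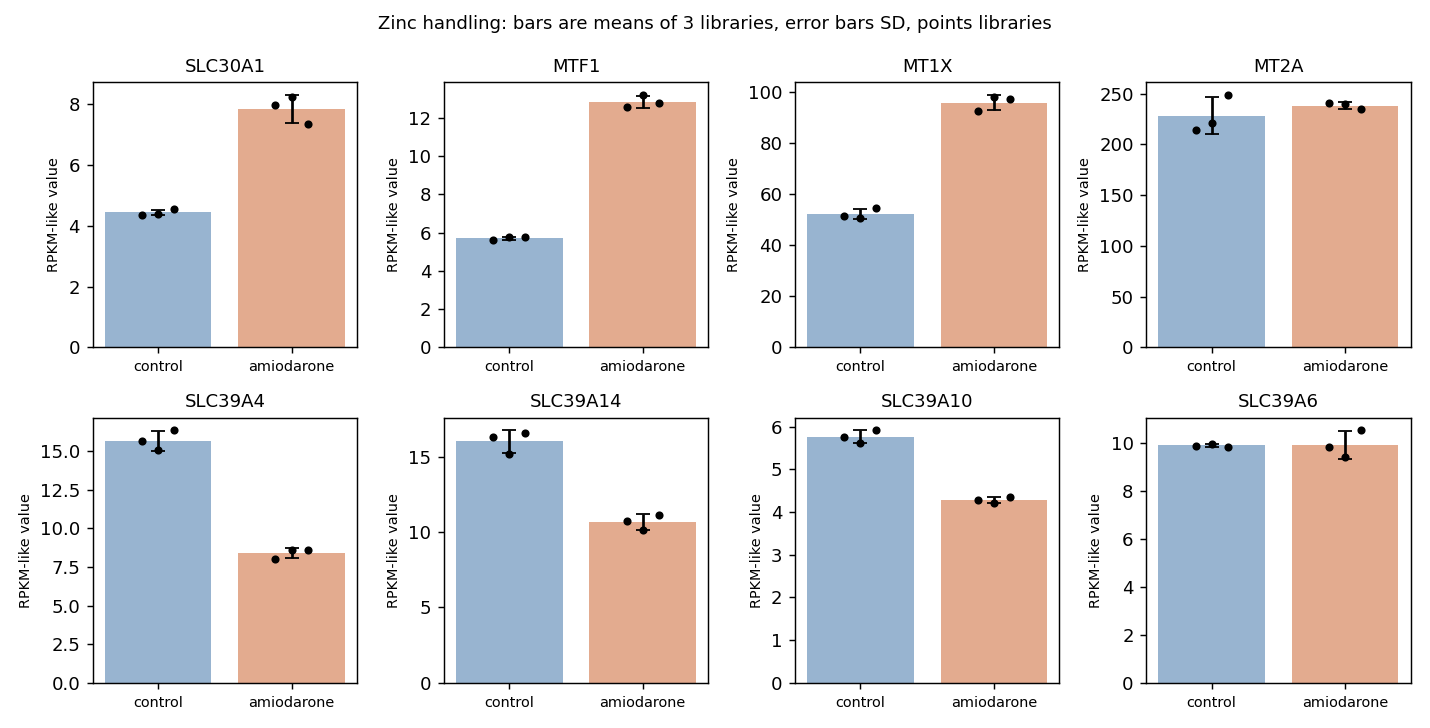
Values (RPKM-like) of 8 genes of zinc handling in controls and after amiodarone, with bars for the mean of 3 libraries, error bars for the SD and points for libraries. SLC30A1, MTF1 and MT1X are higher after amiodarone, MT2A and SLC39A6 overlap between the groups, and SLC39A4, SLC39A14 and SLC39A10 are lower.

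The 29 transporter genes that did not reach a value of 1 in 3 libraries were 6 of SLC2A, 9 of SLC5A, 5 of SLC16A, 3 of SLC30A, 2 each of SLC28A and SLC39A and 1 each of SLC19A and SLC29A. 10 of them were under 0.1 in every library, and 12 were listed at 0 in at least 1. Their highest value was 1.61, for SLC16A13 in control replicate 3. In 11 of the 29 every amiodarone library lay above every control library, and in 2, SLC16A13 and SLC29A4, below, that is 37.9% and 6.9%. Over all 6466 genes that failed the filter the shares were 21% and 10.4%. A group mean reached 0.5 in 9 of the 29. None was given a test in the main comparison.

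The members named most above lie as follows in GENCODE 29 (GRCh38). SLC2A3 is on chromosome 12 at 7919230 to 7936275, beside SLC2A14 at 7812512 to 7891148, both on the minus strand. SLC2A1 and SLC2A5 are on chromosome 1 at 42925375 to 42959176 and 9035107 to 9088478, and SLC16A1 and SLC30A1 are on the same chromosome at 112911847 to 112957013 and 211571568 to 211578742, all on the minus strand. SLC16A3 is on chromosome 17 at 82228397 to 82261129 (plus strand), SLC29A1 on chromosome 6 at 44219505 to 44234151 (plus strand) and SLC5A6 on chromosome 2 at 27199587 to 27212958 (minus strand). The start that RefSeq gives for SLC30A1 lies upstream of the GENCODE one. Exons of more than 15% overlap with a gene on the opposite strand were found for 3 of the 71 genes, SLC2A12, SLC5A2 and SLC5A10, none of which was tested.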

How the data were processed

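The 6 libraries, 3 control and 3 amiodarone, were prepared from mRNA with a stranded kit, per the labels' protocols. Of tools, the submitters' processing notes list STAR 2.5.3a, featureCounts and fastp 0.23.4, with the build GRCh38.p12. Neither annotation nor strand setting was given in the sources used here. The authors' deposited values are taken as RPKM from how they behave, since no unit is named per the file headers: they are not whole, and column sums differ. Whole reads could not be recovered: of low values in short genes, 40.8% to 52.2% fell within 0.15 of a multiple of the best step. By chance 30% would do so for a step fixed beforehand. The best of many steps tried can exceed that by chance too, and by how much was not tested.

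The values were tested as deposited, with limma 3.58.1 in R 4.3.3 (lmFit and trended eBayes, no covariate) on log2(value + 1). A gene entered if 3 or more libraries had a value of 1 or more, and p-values were adjusted by Benjamini-Hochberg over 11445 genes. This log2 scale understates the change of low genes, and folds are ratios of group means. Simulated data used the control means, an assumed spread and far fewer changed genes than were called here. In them, 49 of 50 genes changed 2-fold and 41 of 50 changed 1.25-fold were recovered, and 10 of 11245 unchanged genes were called. These rates need not hold for the libraries themselves. Alternatives covered the pseudocount, the filter, scaling, the variance trend, a replicate block and each library left out.

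Full statistics are given for called genes with the largest absolute log2 fold change, up to 4 in families of 10 or more rows and 2 in smaller ones, among those whose higher group averaged 2 or more, except SLC5A5, which only the amiodarone libraries carried past the filter. Other genes are given by means, and context lists by BSG, EMB, TXNIP, MTF1 and the 3 called genes of smallest adjusted p, some of which are not reported here. Members and lists were chosen with earlier results of these data known. Overlaps and 50-base words come from GENCODE 29, and upstream sequences from RefSeq, with an entry for 56 of the 71 genes.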

Additional observations from a re-analysis of the deposited data

How the results depend on the processing

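Of 36 called transporters, 32 kept their call and direction under each alternative that could be run for them (pseudocounts of 0.1 and 0.5, no filter, a minimum value of 5, scaling by the median of ratios or to equal sums, no variance trend, the replicate block, and leaving out each library), and none reversed. The other 4 of the 36, SLC5A3, SLC30A7, SLC30A9 and SLC39A13, lost it in at least 1, and the cause was not tested. Among the 32 are SLC2A4, SLC5A5, SLC16A9 and SLC30A4, which had to differ. Only 10 alternatives could be run for each of these, so their kept calls add no support. The number called higher, 15, became 25 without a filter and 5 at a minimum value of 5, where other numbers of genes were tested. It was 16, 14 and 15 without control replicates 1, 2 and 3, and 12, 11 and 10 without amiodarone replicates 1, 2 and 3. Without an amiodarone library only 38 transporters were tested, because the 4 genes that had to differ fell under the filter. The number called lower was 19 to 25 over all alternatives. The SLC5A median log2 fold change was -0.4256, -0.4098 and -0.4424 without amiodarone replicates 1, 2 and 3, which leave SLC5A5 under the filter, and up to 0.1849 without a control library. At a minimum value of 5 the medians of SLC5A, SLC2A and SLC16A were -1.0137, -0.8286 and -0.1581, and without a filter those of SLC16A and SLC28A were -0.0426 and 0.3889, as the genes tested differed. The log2 fold changes of 3 uncalled genes changed sign around 0. SLC2A11 was at -0.0393 with equal sums and -0.0157 to 0.0558 with 1 library left out (lowest without amiodarone replicate 2). SLC30A6 was at 0.0129 with the median of ratios and -0.0457 to 0.0038 with 1 library left out (highest without control replicate 1). SLC39A6 was at -0.0818 with equal sums and -0.0389 to 0.0355 with 1 library left out, -6e-04 and -0.0026 of these without control replicates 1 and 3. Same-numbered libraries did not deviate together (r = -0.15, -0.02 and -0.02), and no library correlated best with its own number. With the replicate block 15 transporters were higher and 20 lower, and 3748 and 5022 of all genes. Over all tested genes, 3832 higher and 5127 lower became 4205 and 4746 with the median of ratios and 3099 and 5908 with equal sums.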
